A study of Mus musculus with 21 samples.

Results

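Squamous cell carcinoma (SCC) and complex adenocarcinoma (CAC) are 2 of the tumor types found in mammary glands of mice with both a RhoC transgene and an activated Neu allele. The tumors compared here are the 3 RhoC tumors listed as SCC (R-6, R-13, R-14) and the 4 listed as CAC (R-7, R-10, R-12 and R-16), 7 of 12 RhoC tumors and of 21 tumors in all. Histology came from the study's supplementary table and was joined by tumor name, since the deposited labels give genotype and mouse but no histology. All 7 carried the same alleles, labelled R26(RhoC/+);FloxNeoNeuNT;MMTV-CreNLST. RhoC was read from the Rosa26 locus behind a loxP-flanked stop, and the activated Neu NT cDNA sat at the endogenous Erbb2 locus behind another. MMTV-Cre NLST, a Cre driven in mammary epithelium, removes both stops. By the study's description, this Cre line appears to be active in fewer mammary cells, or at a lower level, than other MMTV-Cre lines. The 9 control tumors, used only as context at the end, carried the Neu and Cre alleles without RhoC. Of these, 7 also carried Gata4(loxP/+) and 2 did not. Hosts were virgin females, and their ages were not given in the sources used here. The comparison addresses how gene expression in tumors of one genotype differed with their histology.

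The SCC came from 2 mice and the CAC from 4. Mouse N9255 gave SCC R-6 and CAC R-7, and mouse P497 gave SCC R-13, SCC R-14 and CAC R-16. P497 also gave R-15, a RhoC tumor outside the comparison. CAC R-10 came from mouse N9931 and CAC R-12 from mouse N9934. Each mouse with an SCC thus also gave a CAC, which allowed differences within a mouse. Tumors of one mouse share a host, so the p-values below measure the spread between tumors rather than between unrelated animals.

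Stratified squamous epithelium is built from a basal layer, marked by keratins 5 and 14 and the transcription factor p63, and from suprabasal layers that stop dividing and differentiate. Late in that program cells make small cross-linked proteins (the SPRR, LCE and involucrin proteins) that form the cornified envelope, a rigid shell under the plasma membrane, together with the lipids, lipoxygenases and proteases that seal and shed it. Many genes of the envelope lie side by side in the epidermal differentiation complex. Mammary epithelium normally has luminal cells, which can make milk proteins, and basal myoepithelial cells, which express keratins 5 and 14 but do not cornify. Squamous differentiation in a mammary tumor is therefore read from the cornified envelope and suprabasal genes rather than from basal keratins alone.

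The sequences shown next belong to 5 of the 11 envelope genes that were called higher in SCC, as described below. They are examples, so their matches give no share for envelope genes. Each line gives the 200 bases before the RefSeq transcription start of a cornified envelope gene (build GRCm38.p6, written 5′ to 3′ on the strand of the gene), with matches to the AP-1 motif TGANTCA in capitals. AP-1 is the Jun and Fos family of transcription factors, known to act on many keratinocyte genes. The motif is its own reverse complement, so 1 search covered both strands.
Sprr1b, chr3:92438780-92438979, minus strand: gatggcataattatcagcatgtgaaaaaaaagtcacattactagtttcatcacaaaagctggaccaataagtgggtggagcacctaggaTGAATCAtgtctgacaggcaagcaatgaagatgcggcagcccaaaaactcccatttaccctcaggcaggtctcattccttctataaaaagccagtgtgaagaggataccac
Sprr1a, chr3:92485882-92486081, minus strand: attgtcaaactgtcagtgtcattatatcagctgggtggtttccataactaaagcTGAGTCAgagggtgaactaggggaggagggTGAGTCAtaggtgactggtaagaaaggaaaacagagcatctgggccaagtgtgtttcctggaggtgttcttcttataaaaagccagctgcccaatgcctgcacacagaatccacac
Sprr2h, chr3:92385485-92385684, plus strand: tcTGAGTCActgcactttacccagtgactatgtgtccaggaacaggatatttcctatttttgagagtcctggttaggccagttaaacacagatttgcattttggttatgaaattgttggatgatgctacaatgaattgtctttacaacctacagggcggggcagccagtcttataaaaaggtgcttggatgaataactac
Krtdap, chr7:30787705-30787904, plus strand: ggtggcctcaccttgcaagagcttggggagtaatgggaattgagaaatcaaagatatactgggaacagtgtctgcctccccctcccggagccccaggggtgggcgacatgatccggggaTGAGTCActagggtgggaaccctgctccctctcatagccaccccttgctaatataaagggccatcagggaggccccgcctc
Cnfn, chr7:25369725-25369924, minus strand: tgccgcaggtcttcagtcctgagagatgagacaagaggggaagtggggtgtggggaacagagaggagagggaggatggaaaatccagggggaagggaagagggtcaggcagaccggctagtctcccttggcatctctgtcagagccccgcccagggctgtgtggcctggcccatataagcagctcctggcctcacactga

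The first base of a match lay 111 bases before the start in Sprr1b, 146 and 116 in Sprr1a, 198 in Sprr2h and 81 in Krtdap. Cnfn held no match in its 200 bases. Over 250-base windows, the motif was in 28 of 156 windows (17.9%) of the genes called higher in SCC, with windows for 137 of those 181 genes. It was in 0 of 77 windows of the genes called lower, in 832 of 15727 windows (5.29%) of all tested genes and in 2217 of 32851 (6.75%) of all windows. Neighbouring family members share promoter sequence, so windows are not independent and these shares are descriptions of letters. Binding was not measured.

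Reads assigned to genes totalled 52293664 to 70318383 per tumor, and 34022 of 49652 annotated genes had a read in at least 1 of the 7. Fewer genes had a read in the SCC (25471 to 26239) than in the CAC (26448 to 27371; exact permutation test, two-sided, p = 0.0286, the smallest that 35 assignments allow). Total reads did not separate the groups (exact permutation p = 0.2). After the low-count filter, 19249 genes were tested with edgeR's quasi-likelihood test, and a gene is called here when its Benjamini-Hochberg adjusted p was below 0.05. The filter keeps a gene with reads in as many tumors as the smaller group, so a gene silent in CAC could pass through the SCC alone. Levels are counts per 1e6 reads (CPM) after TMM scaling, and fold changes are log2 ratios of SCC over CAC.

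Of the tested genes, 263 were called (1.37%), 181 higher in SCC (0.94%) and 82 lower (0.426%). The genes called higher had a median log2 fold change of 5.06 (range 1.11 to 12.79), and 169 of them differed by at least 4-fold. Those called lower had a median of −3.30 (range −9.63 to −1.21), with 69 past 4-fold. Across all tested genes the median was −0.06. Without adjustment, 3723 of the 19249 tested genes had p under 0.05, and list counts at that threshold below stand against this share. DESeq2 called 1020 genes higher and 1185 lower, a split nearer to even. Blocking on mouse, edgeR called 407 higher and 232 lower, and 156 of the 263 were also called there. In that fit R-10 and R-12, each the only tumor of its mouse, carry no weight on the SCC difference. Blocked values here and below thus rest on the tumors of mice N9255 and P497. All 263 had SCC levels that did not overlap the CAC levels, where 9.17% of tested genes had all 3 SCC above all 4 CAC and 8.6% had all 3 below.

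How many genes passed depended on single tumors. Without R-6, R-7, R-10, R-12, R-13, R-14 or R-16 in turn, 24, 8, 59, 827, 7, 330 and 5 genes were called. Fgfbp1 and Teddm3 were called under all 15 alternatives run, and Crabp1 under the 7 that left out 1 tumor. Of the 263, 8 were called in at least 5 of those 7 fits, so most calls named below were lost in some of them. No called gene changed sign under any alternative. Since the groups did not overlap for any called gene, this was largely fixed in advance and is no measure of stability. The counts over gene lists given below move with some of the same tumors, and where leaving out a tumor or summing the 2 SCC of mouse P497 changed a list's count, the value stands beside it. A range after a list's median covers that median over the 15 alternatives.

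Within CAC, 3 libraries stood apart. R-12 carried basal keratins near SCC levels, as given below. R-10 carried skeletal muscle and fat cell genes, with summed skeletal muscle markers of 896 CPM against 1.68 to 5.61 in the other CAC and summed adipocyte markers of 276 against 18.3 to 27.6. R-7 carried the most milk protein RNA. Over all tested genes the SCC were nonetheless close to each other (Spearman correlation of log2 CPM 0.948 to 0.966), and R-6 and R-13, from different mice, were the closest SCC pair. The correlation between tumors of one mouse with different histology was 0.860 for R-6 and R-7, 0.895 for R-13 and R-16 and 0.931 for R-14 and R-16. The nearest tumor was one of the same histology for 6 of 7 tumors. It was from the same mouse for 1 of 7, though R-10 and R-12 had no other tumor of their mouse to be near. R-12 was the exception for histology, with R-14 nearest by a small margin (0.9442, against 0.9439 for R-16). By Pearson correlation R-16 was nearer to R-12 than R-14 was (0.934 against 0.930).

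**Figure D1:**
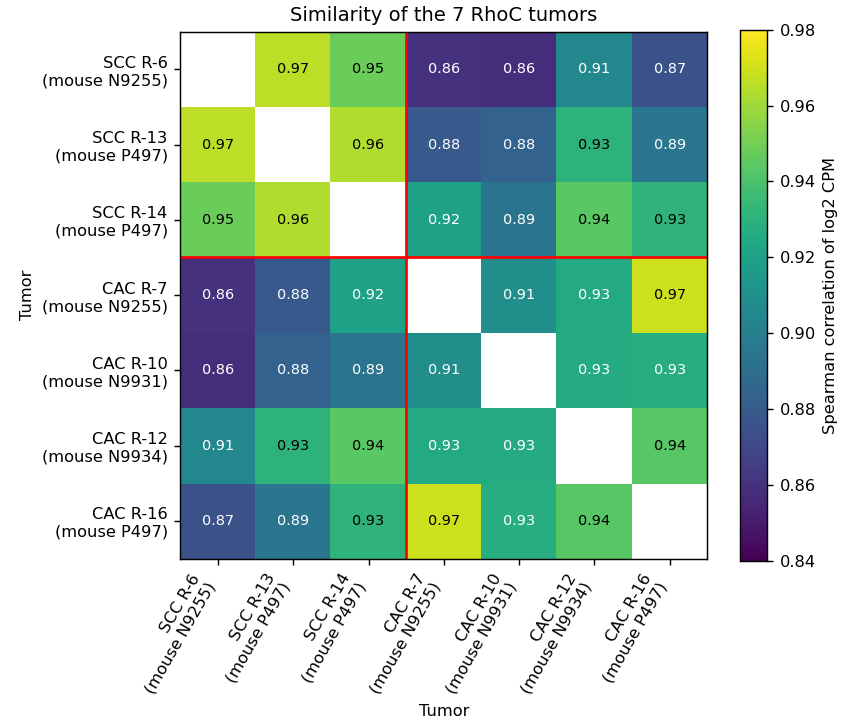
Spearman correlation of log2 CPM over all tested genes between each pair of the 7 RhoC tumors (colour scale and printed values, no unit), with red lines between SCC and CAC. The 3 SCC correlated at 0.948 or more with each other, and R-12 was the CAC closest to them.

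The cornified envelope list held the most genes called higher in SCC of the lists examined, among them 5 small proline-rich proteins. Of 58 listed genes, 32 passed the filter, 11 of these were called higher (Asprv1, Cnfn, Sbsn, Sprr1a, Sprr2h, Sprr1b, Krtdap, Lce3c, Scel, Sprr2k and Sprr2i) and none lower. The mouse block gave 20 called higher, and summing the P497 SCC gave 5. The median log2 fold change of the 32 was 6.75 (range 5.45 to 8.98), or 6.53 with the 3 genes lacking any CAC read set at their bound. Members with few or no CAC reads passed the filter through the SCC alone, so these medians describe the genes that passed and not all 58. The summed level of the list was 4900, 1547 and 851 CPM in R-6, R-13 and R-14, against 104, 209, 161 and 96.5 in R-7, R-10, R-12 and R-16. So the lowest SCC held over 4 times the highest CAC. Without R-6, R-7, R-10, R-12, R-13, R-14 or R-16 in turn, 3, 0, 0, 16, 0, 14 and 0 members were called. In bulk tissue, fewer squamous cells and less RNA per cell cannot be told apart.

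Sprr1b (chromosome 3, 92436809 to 92438789), a cross-linked envelope protein, stood at 68.0, 41.6 and 10.7 CPM in R-6, R-13 and R-14. In CAC it was at 0 in R-7, R-10 and R-16 and at 0.163 in R-12. The groups did not overlap, and the log2 fold change was 9.90 ± 1.40 (SE, 3 SCC and 4 CAC; edgeR adjusted p = 0.0278). Sprr1a, its neighbour and close paralog, was at 731, 191 and 89.3 CPM in SCC and 0.199 to 2.02 in CAC (log2 8.28 ± 1.07, edgeR adjusted p = 0.0251, or 0.0778 with the mouse block). Reads shared between paralogs were discarded in counting, so levels of Sprr1a, Sprr1b and the Sprr2 genes are uncertain.

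Krtdap (chromosome 7, 30787905 to 30791097), a secreted protein of suprabasal keratinocytes, was at 339, 102 and 24.8 CPM in R-6, R-13 and R-14, against at most 0.265 in CAC. Its log2 fold change was 10.16 ± 1.45 (edgeR adjusted p = 0.0278). Cnfn, cornifelin of the envelope, was at 113, 9.38 and 5.98 CPM in SCC, and all 4 CAC together held 1 read. The ratio was 10390 (95% counting interval 1865 to 410367, which covers counting error only; edgeR adjusted p = 0.0251). Sprr2h likewise had 37.2, 2.86 and 2.61 CPM in SCC and 1 read in CAC (ratio 3461, 621 to 136688; edgeR adjusted p = 0.0275). R-6 was the highest of the SCC for each of these genes.

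Asprv1, the skin protease that processes filaggrin, differed less because CAC also expressed it. It was at 294, 85.9 and 90.1 CPM in SCC and 6.86 to 12.1 in CAC (log2 4.05 ± 0.51, edgeR adjusted p = 0.0236, or 0.0527 with the mouse block). Sbsn, suprabasin, was at 57.1, 41.6 and 10.8 against 0.495 to 1.71 (log2 5.11 ± 0.66, edgeR adjusted p = 0.0251). Involucrin (Ivl), the classical envelope precursor, was at 27.7, 19.0 and 12.3 CPM in SCC, at 0.83 in R-12 and at most 0.0166 in the other CAC. It was not called (log2 6.53 ± 1.66, edgeR adjusted p = 0.0956), though it was with the mouse block (adjusted p = 0.0227) and without R-12 (0.00916). Loricrin (Lor), the main protein of the epidermal envelope, was at 0.0573, 0.08 and 0.224 CPM in SCC and at most 0.0498 in CAC, too low to be tested.

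The epidermal differentiation complex (chromosome 3, 90511034 to 93564643) was examined by position. Its summed level was 3870, 2867 and 1445 CPM in R-6, R-13 and R-14, against 441, 504, 1852 and 632 in R-7, R-10, R-12 and R-16, so R-12 exceeded R-14 and the groups overlapped. Of its 92 genes with a read, 40 passed the filter, and 9 of those were called higher and none lower (median log2 3.71, range 2.92 to 5.86). Under the mouse block 12 were higher and 1 lower, and with the P497 SCC summed 3 were higher. Without R-6, R-7, R-10, R-12, R-13, R-14 or R-16 in turn, 2, 0, 1, 15, 0, 11 and 0 were called higher. Of the 9, 6 are also in the cornified envelope list, so the 2 counts overlap. The other 3, named after their values were seen, were S100a8, described below, Pglyrp4, which encodes a peptidoglycan recognition protein, and the gene model Gm35439.

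**Figure D2:**
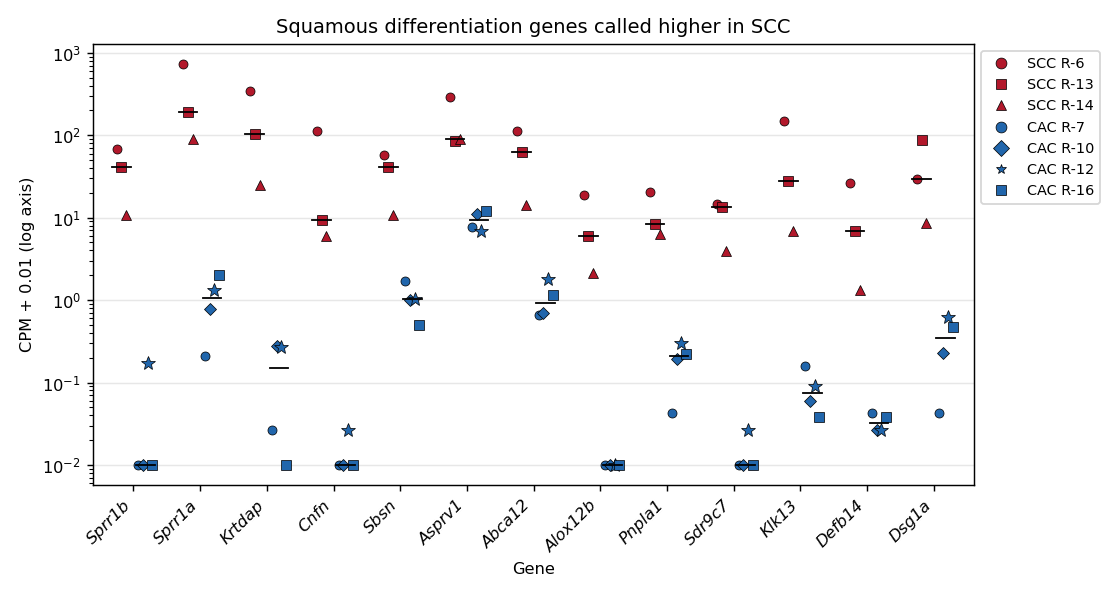
CPM of 13 squamous differentiation genes called higher in SCC (log axis, with a small constant added so that 0 can be drawn), 1 symbol per tumor, red for SCC and blue for CAC, with bars at group medians. For every gene drawn the 3 SCC lie above the 4 CAC, as for all genes called higher. R-6 is the highest SCC for all drawn except Dsg1a, and Alox12b has no CAC read.

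Enzymes that build the lipid barrier of cornified cells, listed together with the epidermal transglutaminases, formed the other large group. Of 26 listed, 25 passed the filter and 10 were called higher (Sdr9c7, Pnpla1, Abca12, Aloxe3, Sult2b1, Degs2, Cyp4f39, Lipm, Alox12b and Elovl4), with none lower and a median log2 fold change of 3.30 (range 2.70 to 3.97). Under the mouse block 5 were called, and with the P497 SCC summed 2. Summed levels were 1576, 1005 and 664 CPM in SCC and 485 to 519 in CAC, a narrower gap than for the envelope proteins. Leaving out R-6, R-7, R-10, R-12, R-13, R-14 or R-16 in turn left 1, 0, 1, 11, 0, 9 and 0 calls.

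Abca12, the transporter that loads lipids into lamellar granules, was at 114, 63.0 and 14.1 CPM in R-6, R-13 and R-14, against 0.647 to 1.79 in CAC (log2 5.90 ± 0.76, edgeR adjusted p = 0.0251, or 0.0555 with the mouse block). Alox12b, the lipoxygenase that starts the oxidation of barrier ceramides, was at 18.8, 5.98 and 2.13 CPM in SCC with no read in any CAC. Against a floor of 3 reads per library it was at least 189-fold higher (edgeR adjusted p = 0.0448). Aloxe3, which acts next, was at 1.99, 1.82 and 0.737 against 0.0663 to 0.133 (log2 3.85 ± 0.53, edgeR adjusted p = 0.0275, or 0.0606 with the block). Sdr9c7, the following enzyme in that path, was at 14.5, 13.4 and 3.88 CPM with 1 read in CAC (ratio 2560, 459 to 101107; edgeR adjusted p = 0.0167).

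Pnpla1, which makes the acylceramides of the barrier, was at 20.8, 8.4 and 6.33 CPM in SCC and at most 0.293 in CAC (log2 6.02 ± 0.77, edgeR adjusted p = 0.0251, or 0.0546 with the block). Elovl4, which elongates very long fatty acids, was at 188, 210 and 73.6 against 0.609 to 8.18, highest in R-12 among CAC (log2 5.85 ± 1.07, edgeR adjusted p = 0.0484). R-6 and R-13 were close to each other for Elovl4 and Sdr9c7, and R-14 was the lowest SCC for all of these lipid genes. The transglutaminases that cross-link the envelope were not called. Tgm1 was at 237, 26.8 and 47.0 CPM in SCC and at 63.3 in R-7 against 1.97 to 10.2 in the other CAC, so the groups overlapped (log2 2.35 ± 1.20, edgeR adjusted p = 0.327). Tgm3 was at 6.04, 0.32 and 0.721 against 0.0166 to 0.149 (log2 4.81 ± 1.15, edgeR adjusted p = 0.0847).

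Proteases of the cornified layer, their inhibitors and epithelial alarmins included further called genes. Of 31 listed kallikreins, serpins and inhibitors, 30 were matched and 23 tested, and Klk11, Klk12 and Klk13 were called higher (median log2 1.86, range 1.78 to 2.92; 7 with mouse as a block and 2 with the P497 SCC summed). Klk13, a kallikrein of stratified epithelia, was at 150, 27.8 and 6.81 CPM in R-6, R-13 and R-14, against at most 0.149 in CAC (log2 9.62 ± 1.25, edgeR adjusted p = 0.0251). Klk7, which cleaves corneodesmosomes, was at 21.9, 115 and 27.9 CPM in SCC, at 18.8 in R-12 and at 1.01 to 2.06 in the other CAC. It was not called (log2 3.23 ± 1.14, edgeR adjusted p = 0.185). Spink5, the inhibitor of those proteases, was at 308, 186 and 66.0 against 0.0994 to 14 (log2 4.73 ± 1.20, edgeR adjusted p = 0.0969, or 0.035 with the block). Without R-6, R-7, R-10, R-12, R-13, R-14 or R-16 in turn, 1, 0, 0, 7, 0, 3 and 0 of the list were called.

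Among 25 listed alarmins and IL-1 family genes, 19 were tested and 4 called higher (Il1f8, Defb14, Il1f9 and S100a8; median log2 3.36, range 2.56 to 5.47). With the block 4 were called, Il1f9 and S100a8 not among them, and with the P497 SCC summed 2. The count was 2, 0, 1, 10, 0, 5 and 0 without R-6, R-7, R-10, R-12, R-13, R-14 or R-16. Defb14, a skin beta-defensin, was at 26.4, 6.82 and 1.33 CPM in SCC and at most 0.0332 in CAC (log2 8.80 ± 1.13, edgeR adjusted p = 0.0251). Il1f9, which encodes IL-36 gamma, was at 132, 26.7 and 10.6 against 0.183 to 1.27 (log2 6.64 ± 1.08, edgeR adjusted p = 0.0387, or 0.0615 with the block). Il1f8, which encodes IL-36 beta, was at 5.69, 2.88 and 1.31 CPM with 1 CAC read (ratio 804, 144 to 31763; edgeR adjusted p = 0.0215). These cytokines are made by keratinocytes at barrier surfaces.

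S100a8, which both stressed keratinocytes and neutrophils express, was at 302, 57.6 and 28.2 CPM in SCC and 4.01 to 7.81 in CAC (log2 4.44 ± 0.80, edgeR adjusted p = 0.0483, or 0.12 with the block). S100a9, its partner, was at 195, 36.2 and 5.53 against 0.663 to 1.93 and was not called (log2 5.75 ± 1.10, edgeR adjusted p = 0.0532). Neutrophil markers were examined beside them. Of 14 listed, 13 were matched and 12 tested, 2 were called higher (Stfa3 and S100a8, the latter on both lists), and the median log2 fold change was 2.71, or 1.46 without R-6. DESeq2 called 8 of the list higher and none lower. With the block 1 was called, with the P497 SCC summed 1, and without R-6, R-7, R-10, R-12, R-13, R-14 or R-16 the count was 1, 0, 1, 2, 1, 3 and 0.

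The neutrophil list summed to 898, 151 and 111 CPM in R-6, R-13 and R-14, against 33.1 to 51.1 in CAC. Of its defining markers, the receptor Cxcr2 was at 91.4, 9.6 and 23.6 CPM in SCC and 5.66 to 10.3 in CAC, Csf3r at 118, 14.6 and 20.9 against 12.4 to 22.5, and Ly6g at most 0.707 in any tumor. R-6 was the tumor with the most neutrophil marker RNA, and R-13 and R-14 overlapped CAC for Csf3r. The part of these cells in the alarmin values was not tested. Stfa3 and the related Cstdc5 are stefin family genes with close copies, so reads cannot be assigned to single members with certainty. Cstdc5 was at 301, 60.7 and 37.1 CPM in SCC and at most 0.39 in CAC (log2 8.99 ± 0.96, edgeR adjusted p = 0.0215). Lipocalin 2 (Lcn2), another alarmin of epithelia and neutrophils, went the other way in level, at 180, 104 and 726 CPM in SCC and 416 to 7403 in CAC (log2 −3.59 ± 1.16, edgeR adjusted p = 0.157).

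Basal layer genes were far higher in the SCC than in 3 of the CAC by summed level, with R-12 just below the lowest SCC. Of 14 listed, all were tested and none called, 5 had an unadjusted p under 0.05, all higher in SCC, and the median log2 fold change was 2.57 (range 2.04 to 4.38). With mouse as a block 7 were called higher, with DESeq2 2, and without R-12 9. Leaving out any other tumor or summing the P497 SCC gave none. Summed over the list, levels were 13365 to 31286 CPM in SCC, 12234 in R-12 and 1939 to 3015 in R-7, R-10 and R-16.

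Krt14 (chromosome 11, 100203162 to 100207548), the type I keratin of basal cells, was at 9066, 6007 and 1944 CPM in R-6, R-13 and R-14. It was at 1997 in R-12 and at 2.91, 1.33 and 8.12 in R-7, R-10 and R-16. R-12 thus exceeded R-14, and the gene was not called (log2 3.50 ± 2.23, edgeR adjusted p = 0.429). With mouse as a block the log2 difference was 9.96 (adjusted p = 0.0344), and without R-12 it was 10.43 (0.0129). Both fits take R-12 out of the difference, so they are not independent of each other. Krt5, its partner, was at 5979, 4648 and 2796 CPM in SCC, 1541 in R-12 and 0.614 to 5.04 in the other CAC (log2 3.53 ± 2.24, edgeR adjusted p = 0.427, or 0.0254 with the block). Trp63, which encodes p63, was at 826, 457 and 329 CPM in SCC, 261 in R-12 and 2.26 to 12 in the rest (log2 2.93 ± 1.45, edgeR adjusted p = 0.316, or 0.0197 with the block).

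Keratins of activated and wounded keratinocytes were distributed alike. Krt6a (chromosome 15, 101689910 to 101694307) was at 4392, 2140 and 772 CPM in SCC, at 348 in R-12 and at 0.679 to 1.46 in the other CAC. The difference was not called (log2 4.79 ± 2.22, edgeR adjusted p = 0.287) but was with the block (log2 11.07, adjusted p = 0.0227). Krt16, its type I partner, was at 4548, 1331 and 342 CPM in SCC, 53.7 in R-12 and 0.127 to 0.631 elsewhere (log2 7.24 ± 2.31, edgeR adjusted p = 0.153, or 0.0227 with the block). Krt6a and Krt6b are near-identical, so their separate levels are uncertain. Of 16 listed squamous keratins, 8 were tested and none called, while 5 had an unadjusted p under 0.05, all higher. With the block 3 were called, with DESeq2 3 and without R-12 3. By position, none was called of 11 tested genes in the type I keratin cluster (chromosome 11, 99232761 to 100269871; 3 higher at an unadjusted p under 0.05, 2 with DESeq2, 3 with the block and 3 without R-12). None was called of 15 in the type II cluster (chromosome 15, 101347444 to 102032027; 4 higher and 1 lower at an unadjusted p under 0.05, 2 higher with DESeq2, 5 with the block and 4 without R-12).

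Compared per transcript length as FPKM, Krt14 led in R-6 and R-13 (5494 and 3627), while in R-14 Krt5 (1303) stood slightly above Krt14 (1132). Krt16 (3096, 902 and 224 FPKM) and Krt6a (2054, 997 and 347) followed. The keratins of ordinary epidermal differentiation were far below these. Krt10 was at 0.616, 0.522 and 1.04 FPKM in R-6, R-13, R-14 respectively, and Krt1 at 0.0415, 0.796 and 0.114. Krt13, a keratin of internal stratified epithelia, was at 0.843, 0 and 4.19 FPKM in SCC. It had no read in CAC. Krt10 CPM was 1.22, 1.04 and 2.15 in SCC against 0.548 to 1.13 in CAC, groups that overlapped (log2 0.95 ± 0.45, edgeR adjusted p = 0.294). The SCC carried envelope genes and keratins 6 and 16 with little keratin 1, keratin 10 or loricrin RNA.

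**Figure D3:**
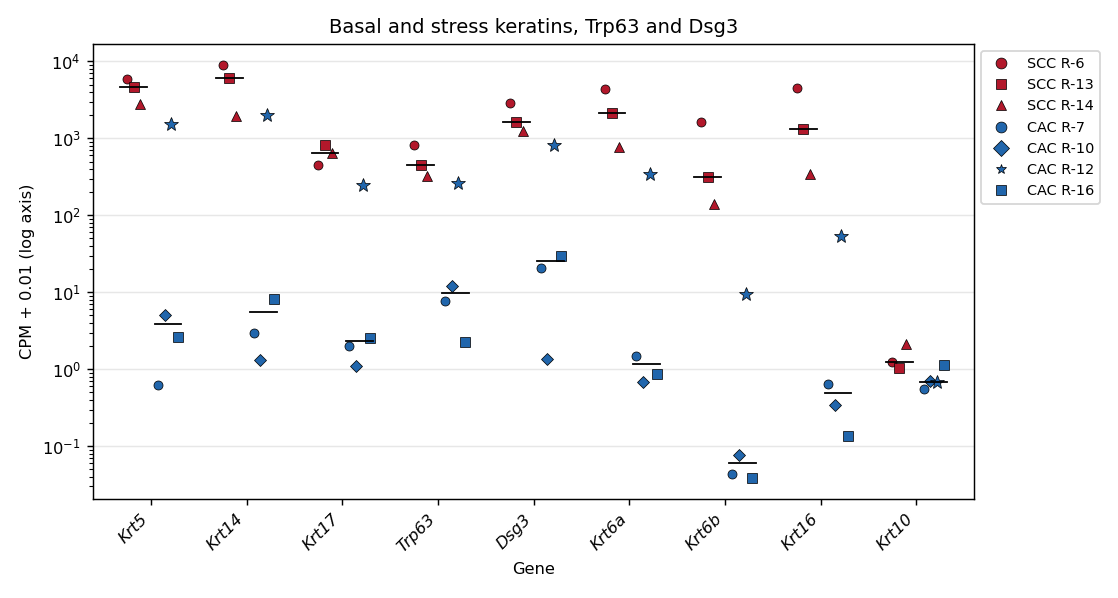
CPM of basal and stress keratins, Trp63, Dsg3 and Krt10 (log axis, small constant added), 1 symbol per tumor, red for SCC and blue for CAC, with bars at group medians. For Krt5, Krt14, Krt17, Trp63, Dsg3, Krt6a, Krt6b and Krt16 the CAC R-12 lies between the SCC and the other 3 CAC, or within the SCC range for Krt14.

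Desmosomes, the junctions that hold squamous cells together, gave 1 call. Of 16 genes, all tested, Dsg1a was called higher, with 6 called under the block. The fitted level was higher in SCC for 13 and lower for 3 (Dsg1c, log2 −2.20, Dsg2, −1.06, and Pkp2, −0.20, none called), and the median log2 fold change was 1.92 (range 1.74 to 3.43). Without R-12 there were 8 calls, without R-14 2, and none without any other tumor or with the P497 SCC summed. Dsg1a, a desmoglein of upper layers with close paralogs, was at 29.5, 87.0 and 8.5 CPM in SCC and at most 0.618 in CAC (log2 6.95 ± 1.09, edgeR adjusted p = 0.036, or 0.0666 with the block). Dsg3, the desmoglein of lower layers, was at 2861, 1638 and 1239 CPM in SCC, at 831 in R-12 and at 1.36 to 29.7 in the others. It was not called (log2 3.12 ± 1.68, edgeR adjusted p = 0.35, or 0.0246 with the block).

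Hair follicle genes gave 2 calls of 10 tested (29 of 30 listed matched, 4 of them at 0 in all 7). These were Foxn1, described next, and Crym, which was at most 0.5 CPM in any tumor. The list gave 3 calls under the block, 1 with the P497 SCC summed, none without R-6, R-7, R-10, R-13 or R-16, 3 without R-12 and 1 without R-14. Padi3, a peptidylarginine deiminase of the follicle, was at 160, 407 and 201 CPM in SCC, at 95.1 in R-12 and at 0.156 to 2.32 in the other CAC (log2 3.39 ± 1.88, edgeR adjusted p = 0.366, or 0.0225 with the block). Of 12 sebaceous gland genes 6 were tested and none called (2 lower at an unadjusted p under 0.05, 1 higher with the block and 0 with DESeq2). Of 9 melanocyte genes 2 were tested and none called (0 at an unadjusted p under 0.05 and 0 with DESeq2).

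Transcription factors of squamous cells had a higher fitted level in SCC for 27 of 32 tested, though few were called. Of 34 listed, 4 were called higher (Foxn1, Pitx1, Pax9 and Tprg) and 1 lower (Tfap2c), with a median log2 fold change of 1.73 (range 1.18 to 2.02). With the block 9 were higher and 1 lower, and with the P497 SCC summed 1 was higher. Without R-6, R-7, R-10, R-13 or R-16 none of the list was called, without R-12 11 were higher, and without R-14 5 were.

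Foxn1, which promotes differentiation of keratinocytes and thymic epithelium, was at 10.5, 6.78 and 1.75 CPM in SCC with 2 reads in CAC (ratio 764, 212 to 6311; edgeR adjusted p = 0.0236). Pitx1, a homeobox factor of hindlimb and oral epithelium, was at 34.7, 38.5 and 119 CPM in R-6, R-13 and R-14, against at most 0.358 in CAC (log2 8.97 ± 1.34, edgeR adjusted p = 0.0317). It was one of 19 of the 181 genes called higher that were highest in R-14. Pax9, a factor of esophageal and oral epithelium, was at 24.3, 2.54 and 3.21 against at most 0.13 (log2 7.78 ± 1.33, edgeR adjusted p = 0.044). Tprg, named as a p63-regulated gene and not itself a transcription factor, was at 13.8, 3.88 and 2.56 against 0.226 to 0.78 (log2 4.03 ± 0.74, edgeR adjusted p = 0.0493).

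Tfap2c, the AP-2 gamma factor of luminal mammary cells and early skin, was the exception in direction. It was at 67.9, 65.0 and 99.3 CPM in SCC and 221 to 397 in CAC (log2 −1.92 ± 0.31, edgeR adjusted p = 0.0373). Factors of late epidermal differentiation were not called. Grhl3 was at 90.1, 32.2 and 22.4 CPM in SCC and 0.199 to 6.06 in CAC (log2 3.96 ± 1.14, edgeR adjusted p = 0.127, or 0.0387 with the block). Ovol1 was at 49.8, 23.2 and 16.6 against 1.03 to 5.71 (log2 2.89 ± 0.62, edgeR adjusted p = 0.0638, or 0.0458 with the block). For both genes the groups did not overlap. Klf4 overlapped, at 155, 147 and 25.1 CPM in SCC and up to 54.1 in R-12 (log2 2.52 ± 1.0, edgeR adjusted p = 0.222).

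In the Wnt and ErbB lists, 2 Wnt ligands and 1 EGF family ligand were called higher. Wnt4 (chromosome 4, 137277489 to 137299726), a Wnt ligand of mammary and skin epithelium, was even across SCC at 50.1, 41.0 and 50.9 CPM. It was at 0.398, 0.779, 1.14 and 1.95 in R-7, R-10, R-12 and R-16 (log2 5.47 ± 0.54, edgeR adjusted p = 0.0191). Wnt3a was at 25.2, 11.7 and 0.721 CPM in R-6, R-13 and R-14 with 1 read in CAC (ratio 2991, 537 to 118140; edgeR adjusted p = 0.0275, or 0.0831 with the block). Wnt10a, a ligand of skin appendages, was at 178, 111 and 49.2 CPM in SCC, 11.1 in R-12 and at most 0.282 in the other CAC. It was not called (log2 5.28 ± 1.71, edgeR adjusted p = 0.159, or 0.0197 with the block).

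The Wnt list as a whole had 2 calls of 26 tested, both higher. Its median log2 fold change moved with the fit, from 0.17 to 1.48 under the mouse block, 1.5 in only the mice with both histologies, 1.06 with voom, 1.07 without R-10 and −0.04 without R-7. The count was 1, 1, 1, 5, 0, 2 and 1 without R-6, R-7, R-10, R-12, R-13, R-14 or R-16. Axin2, a common readout of beta-catenin activity, overlapped between groups at 48.1, 28.6 and 8.99 CPM in SCC and 0.697, 37.4, 11.6 and 1.67 in R-7, R-10, R-12 and R-16 (log2 1.16 ± 1.20, edgeR adjusted p = 0.632). So 2 ligands were called, and this target gene was not.

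Epgn, which encodes the EGF receptor ligand epigen, was at 74.4, 58.6 and 10.1 CPM in SCC and 0.58 to 2.26 in CAC (log2 5.18 ± 0.76, edgeR adjusted p = 0.03, or 0.0776 with the block). It was the 1 call among 16 ErbB receptors and ligands, whose median log2 fold change was 0.34, or −0.15 under the block and −0.05 without R-14. That list had 1 call with the P497 SCC summed, none without R-6, R-7, R-10, R-13 or R-16, 3 higher and 1 lower without R-12, and 2 higher without R-14. Tgfa, a further ligand, was at 512, 381 and 273 CPM against 97.3 to 158 without overlap (log2 1.58 ± 0.30, edgeR adjusted p = 0.0517). Mst1r, the receptor tyrosine kinase RON, is on neither list and was among the 12 genes with the smallest p called higher. It was at 89.7, 44.0 and 25.4 against 1.43 to 3.09 (log2 4.61 ± 0.49, edgeR adjusted p = 0.0215).

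Notch genes gave no call among 21 tested (4 with an unadjusted p under 0.05, all higher), 3 with the block, 3 with DESeq2, 3 without R-12 and 1 without R-14. The unadjusted count is near the share over all genes, 3723 of 19249. Notch1, a receptor that acts in suprabasal commitment, was at 622, 461 and 451 CPM in SCC and 109 to 273 in CAC (log2 1.62 ± 0.34, edgeR adjusted p = 0.0628, or 0.0458 with the block). Jag2, a Notch ligand, was at 250, 173 and 112 against 5.61 to 57.4 (log2 3.17 ± 0.87, edgeR adjusted p = 0.112, or 0.0233 with the block). In both genes R-12 was the highest CAC and the SCC did not overlap it.

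The genes with the smallest p in SCC were mostly outside the envelope list. Crabp1 (chromosome 9, 54764748 to 54773110), a cytoplasmic retinoic acid binding protein, was at 19.9, 22.4 and 29.1 CPM in R-6, R-13 and R-14, against at 1.78, 1.67, 1.76 and 1.27 in R-7, R-10, R-12 and R-16. The narrow spread in both groups went with a log2 fold change of 3.87 ± 0.28 (edgeR adjusted p = 0.00814). Fgfbp1 (chromosome 5, 43978858 to 43981779), which releases FGFs from matrix and is abundant in squamous cells, was at 87.7, 101 and 30.9 CPM against 0.269 to 0.663 (log2 7.22 ± 0.56, edgeR adjusted p = 0.00814). Teddm3 (chromosome 16, 21152655 to 21154000) was at 38.8, 14.7 and 13.7 against at most 0.0325 (log2 10.28 ± 0.79, edgeR adjusted p = 0.00814). R-12 was within the range of the other CAC for Fgfbp1 and Crabp1, unlike for the basal keratins.

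Others of that group were Gm6551, Il22ra1, Gm94, Cstdc5 and Gsta2. Il22ra1, the epithelial receptor subunit for IL-22, was at 4.62, 2.12 and 1.54 CPM in SCC and at most 0.0498 in CAC (log2 6.35 ± 0.63, edgeR adjusted p = 0.0191). Gsta2, a glutathione S-transferase with the near-identical Gsta1, was at 14.4, 3.32 and 7.68 CPM with 3 reads in CAC (ratio 716, 245 to 3473; edgeR adjusted p = 0.0215). In both Il22ra1 and Gsta2 the lowest SCC lay far above the highest CAC.

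Further called genes were chosen after their values were seen. Casp14, the caspase of cornifying cells, was at 2.03, 15.7 and 1.51 CPM in SCC and at most 0.0663 in CAC (log2 7.41 ± 1.21, edgeR adjusted p = 0.0387, or 0.0788 with the block). Aqp3, the water and glycerol channel of basal keratinocytes, was at 459, 326 and 78.2 against 0.0828 to 3.3 (log2 8.19 ± 1.44, edgeR adjusted p = 0.0462). Gjb6, the skin connexin 30, was at 93.4, 5.58 and 3.93 against at most 0.083 (log2 9.55 ± 1.44, edgeR adjusted p = 0.0318). All 3 are known from differentiated or basal epidermis.

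Among matrix metalloproteases, named in the same way, Mmp13, collagenase 3, was at 745, 894 and 600 CPM in SCC and at 10.4, 47.7, 66.2 and 34.8 in R-7, R-10, R-12 and R-16 (log2 4.23 ± 0.58, edgeR adjusted p = 0.0275). Mmp10, stromelysin 2, was at 81.9, 122 and 39.9 against 1.13 to 7.51 (log2 4.29 ± 0.78, edgeR adjusted p = 0.0483). Fabp5, the epidermal fatty acid binding protein and also named so, was at 679, 396 and 197 against 36.0 to 62.7 (log2 3.13 ± 0.42, edgeR adjusted p = 0.0275). These 3 genes were expressed in both groups, so their differences rest on many reads in each tumor.

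The 12 genes called lower with the smallest p included the collagens Col11a1 and Col8a2, while none of the listed fibroblast and matrix genes was called. Col11a1, a fibrillar collagen of cartilage and tumor stroma, was at 9.25, 19.1 and 35.8 CPM in R-6, R-13 and R-14, against at 1652, 385, 963 and 1171 in R-7, R-10, R-12 and R-16. The nearest tumors, R-14 and R-10, still stood at 35.8 and 385 (log2 −5.61 ± 0.74, edgeR adjusted p = 0.0253). Col8a2 (chromosome 4, 126286793 to 126314330), a short-chain collagen, was even within groups at 3.38, 2.96 and 3.19 CPM against 15.9 to 21.2 (log2 −2.55 ± 0.26, edgeR adjusted p = 0.0191). Col10a1, the collagen of hypertrophic cartilage, chosen after its values were seen, was at 1.07, 0.94 and 0.465 against 5.1 to 20.3 (log2 −3.82 ± 0.65, edgeR adjusted p = 0.044).

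Adamts5, Adamtsl1, Hpse2 and Serpina3n were also among these 12. Adamts5, an aggrecan-cleaving protease, was at 4.8, 6.92 and 9.86 CPM in SCC and 39.0 to 73.0 in CAC (log2 −2.90 ± 0.35, edgeR adjusted p = 0.0236). Adamtsl1, a related protein without protease activity, was at 1.17, 2.0 and 1.52 against 7.64 to 15.2 (log2 −3.0 ± 0.39, edgeR adjusted p = 0.0251). Hpse2, a heparanase homolog that binds heparan sulfate, was at most 0.0962 in SCC and 2.57 to 8.87 in CAC (log2 −6.52 ± 0.79, edgeR adjusted p = 0.0236). Serpina3n, a secreted protease inhibitor, was at 12.5, 10.2 and 11.4 against 57.8 to 133 (log2 −2.96 ± 0.36, edgeR adjusted p = 0.0236).

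Others among the 12 with the smallest p were Nrcam, Sema5a, Grik2 and Shisa8. Nrcam (chromosome 12, 44328886 to 44601964), a neuronal adhesion molecule, was at 0.325, 0.12 and 0.385 CPM in SCC and 17.7, 37.5, 16.9 and 54.2 in R-7, R-10, R-12 and R-16 (log2 −6.81 ± 0.71, edgeR adjusted p = 0.0211). Sema5a, a guidance protein, was at 63.0, 57.8 and 74.2 against 200 to 277 (log2 −1.89 ± 0.21, edgeR adjusted p = 0.022). Grik2, a kainate receptor subunit, was at most 0.0573 in SCC and 1.14 to 7.28 in CAC (log2 −6.40 ± 0.84, edgeR adjusted p = 0.0255). R-12 sat with the other CAC for each of these genes.

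Shisa8, an AMPA receptor auxiliary protein, was at most 0.06 CPM in SCC and 4.78 to 43.0 in CAC (log2 −9.05 ± 1.21, edgeR adjusted p = 0.0267). The noncoding RNA Rmst held 3 reads in all SCC together against 1.58 to 4.02 CPM in CAC (ratio of CAC over SCC 138, 95% counting interval 47.1 to 668; edgeR adjusted p = 0.0236). Gm40663, a gene model without a known role, held 1 read in SCC against 1.53 to 8.27 CPM (ratio 768, 138 to 30319; edgeR adjusted p = 0.0236). Both are low in every tumor. Aqp5, a water channel of secretory epithelia, chosen after its values were seen, was at 74.9, 43.0 and 77.4 CPM against 327 to 1086 (log2 −3.34 ± 0.56, edgeR adjusted p = 0.0429). Every SCC lay below every CAC for the 12 lower genes with the smallest p. The same held for all 82 genes called lower, against 8.6% of all tested genes, so it goes with being called.

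**Figure D4:**
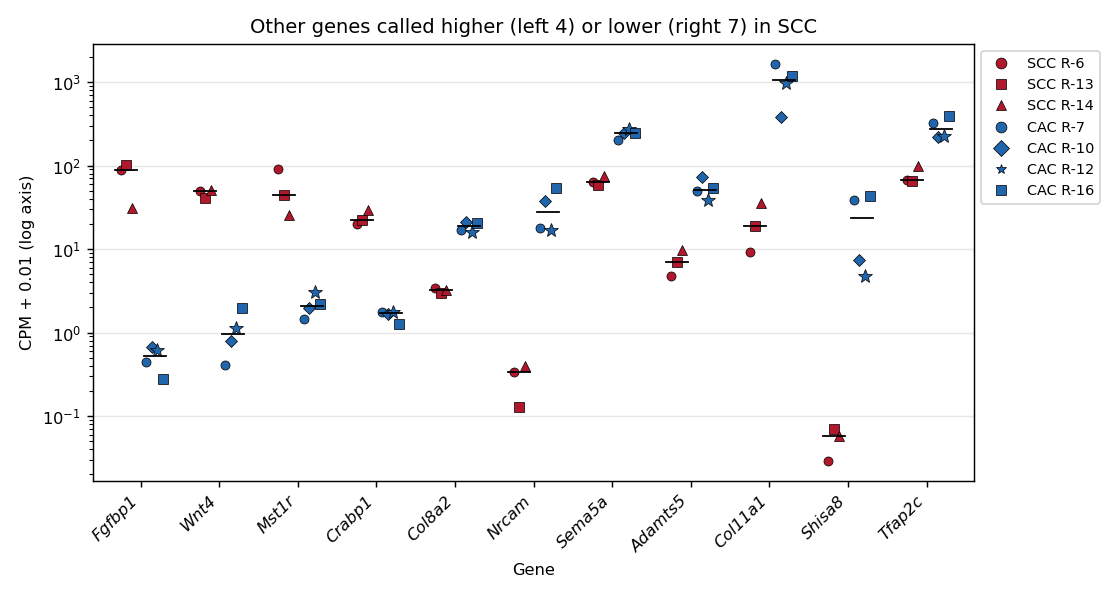
CPM of 4 genes called higher in SCC (Fgfbp1, Wnt4, Mst1r and Crabp1) and 7 called lower (Col8a2, Nrcam, Sema5a, Adamts5, Col11a1, Shisa8 and Tfap2c) on a log axis, 1 symbol per tumor, red for SCC and blue for CAC, with bars at group medians. No gene drawn has overlapping groups, as for every called gene, and R-12 lies with the other CAC.

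Within the SCC, called genes varied in a repeated order. R-6 was the highest SCC for 129 of the 181 genes called higher (71.3%), and R-14 the lowest for 119 (65.7%). Over all tested genes R-6 was highest for 33.1% and R-14 lowest for 33.4%. Among the 82 genes called lower, R-14 was the highest SCC for 52 (63.4%), against 35.1% of all tested genes. R-13 was the lowest SCC for 45 of the 181 and the highest for 15 of the 82. Both R-13 and R-14 came from mouse P497, so the step between them lies within a mouse. R-6 was the only SCC of mouse N9255, so host and tumor cannot be told apart for its place in the order. Within CAC, R-12 was the highest for 78 of the 181 (43.1%), against 24.9% of all tested genes.

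Milk protein and luminal genes did not yield a common call. Of 17 milk genes, none was called, and the median log2 fold change was −4.68, or −1.92 without R-7. An unadjusted p under 0.05 was found for 5, all lower in SCC, against 3723 of all 19249 tested genes. DESeq2 called 4 lower, and 1185 lower over all tested genes. Csn2, beta-casein, was at 12.8, 237 and 141 CPM in SCC and at 16118, 4.36, 3458 and 1321 in R-7, R-10, R-12 and R-16, with R-10 below every SCC (log2 −5.33 ± 2.18, edgeR adjusted p = 0.235). Wap, a milk protein of late pregnancy, was at 218 CPM in R-7 and at most 1.2 in the other 6. Of 30 luminal genes Ly6a was called higher, at 290, 213 and 373 CPM against 16.3 to 54.2 (log2 2.94 ± 0.44, edgeR adjusted p = 0.0327, or 0.0527 with the block). Ly6a, or Sca-1, marks a subset of luminal and stromal cells.

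The luminal count was 0 with the block, with the P497 SCC summed and without R-6, R-7, R-10, R-13 or R-16, 2 higher without R-12, and 1 higher with 3 lower without R-14. DESeq2 called 5 luminal genes higher and 4 lower. Keratins of simple epithelium overlapped between groups. Krt8 was at 163, 971 and 506 CPM in SCC and 148 to 423 in CAC (log2 0.94 ± 0.58, edgeR adjusted p = 0.408), so luminal keratin RNA remained in SCC. Of 15 myoepithelial contractile genes tested, none was called (1 higher and 6 lower at an unadjusted p under 0.05, 3 lower with DESeq2, 1 higher with the block and 1 lower without R-12). Mylk, the myosin light chain kinase, was at 13.4, 12.1 and 15.7 CPM against 34.3 to 80.4 without overlap (log2 −1.85 ± 0.35, edgeR adjusted p = 0.0507).

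Stromal and immune markers gave no further edgeR calls beside the neutrophil list. As a background for the counts that follow, 3723 of 19249 tested genes had an unadjusted p under 0.05 and DESeq2 called 2205. None was called among 20 fibroblast and matrix genes (6 at an unadjusted p under 0.05, 5 with DESeq2 and 1 with the block, all lower), 14 endothelial (3 and 2, all lower) and 14 macrophage genes (6, 5 of them lower, and 3, 2 of them lower, with 1 higher without R-12). Among 15 T and NK cell genes 2 had an unadjusted p under 0.05, and among 6 B and plasma cell genes 0. DESeq2 called none in either. The median log2 fold change of fibroblast genes changed sign with the fit (−0.17, or 0.33 under the block, 0.47 in only the mice with both histologies and 0.13 without R-10). It was −0.54 for endothelial genes (range −1.0 to −0.07), −0.70 for macrophage (−0.96 to −0.49), −0.98 for T and NK (−2.16 to −0.52) and −1.26 for B cell genes (−1.60 to −0.48). Summed macrophage markers were 1048 to 2136 CPM in SCC and 1052 to 1890 in CAC, and summed fibroblast markers 3974 to 15704 against 4116 to 11040. Col11a1, Col8a2 and Col10a1 were thus called lower without a call among the fibroblast markers as listed. Skeletal muscle markers, highest in R-10, gave no call among 6 tested (0 at an unadjusted p under 0.05 and 0 with DESeq2). Adipocyte markers gave none among 5 (3 at an unadjusted p under 0.05, 1 with DESeq2 and 1 with the block, all lower).

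None of the tested genes of the engineered alleles was called. Rhoc was at 75.4, 133 and 98.3 CPM in SCC and 63.5 to 142 in CAC (log2 0.17 ± 0.34, edgeR adjusted p = 0.824), with transgene and endogenous reads not told apart. Erbb2, whose locus holds the Neu cDNA, was at 436, 795 and 924 in SCC and 304 to 1830 in CAC (log2 −0.63 ± 0.62, edgeR adjusted p = 0.612). With mouse as a block its log2 difference was −1.44 (adjusted p = 0.125), and within mice the SCC were lower by log2 CPM differences of −2.07 in N9255 and −1.05 and −0.83 in P497. Its neighbour Grb7 was at 99.0, 135 and 148 against 16.1 to 166 (log2 0.69 ± 0.70, edgeR adjusted p = 0.623). All 3 genes overlapped between the groups of tumors. Gata4, of which some control mice carry a conditional allele, was at 0 in SCC and at 0.0166, 0, 5.28 and 0.0283 in R-7, R-10, R-12 and R-16. With reads almost only in R-12 it did not pass the filter.

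The mesenchymal, mitotic, p53 and interferon lists, for pathways the study examined between genotypes, gave 0 or 1 call each, where 1.37% of all tested genes were called. For the other counts given here, 3723 of 19249 tested genes had an unadjusted p under 0.05 and DESeq2 called 2205. Among 38 mesenchymal genes none was called (6 higher and 4 lower at an unadjusted p under 0.05; 2 and 2 with DESeq2), with 3 higher and 1 lower under the block, 2 higher and 1 lower without R-12 and a median log2 fold change of 0.15 (range −0.22 to 0.53). Cdh2, N-cadherin, was at 3.12, 2.82 and 2.74 CPM in SCC and 9.71 to 115 in CAC (log2 −4.08 ± 0.82, edgeR adjusted p = 0.0574, or 0.0495 with the block), and Vim overlapped (log2 −0.54 ± 0.55, edgeR adjusted p = 0.63). None of 30 mitotic genes was called (1 lower at an unadjusted p under 0.05, 0 with DESeq2). Mki67 was at 144, 154 and 162 CPM against 180 to 305 (log2 −0.60 ± 0.24, edgeR adjusted p = 0.221).

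Of 25 p53 target genes, Pmaip1, which encodes the pro-apoptotic protein NOXA, was called higher. It was at 135, 101 and 65.1 CPM in SCC and 13.5 to 29.2 in CAC (log2 2.22 ± 0.39, edgeR adjusted p = 0.0454, or 0.0876 with the block). The list had 2 calls with the block, 3 without R-12, 1 without R-14 and none without any other tumor or with the P497 SCC summed. Its median log2 fold change was 0.26 (range 0.15 to 0.55). Of 25 interferon response genes none was called (2 higher at an unadjusted p under 0.05, 1 with DESeq2), with a median log2 fold change of 0.45, or −0.22 without R-14 and 0.20 without R-10, and sums of 490 to 1488 CPM in SCC against 185 to 839 in CAC.

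**Figure D5:**
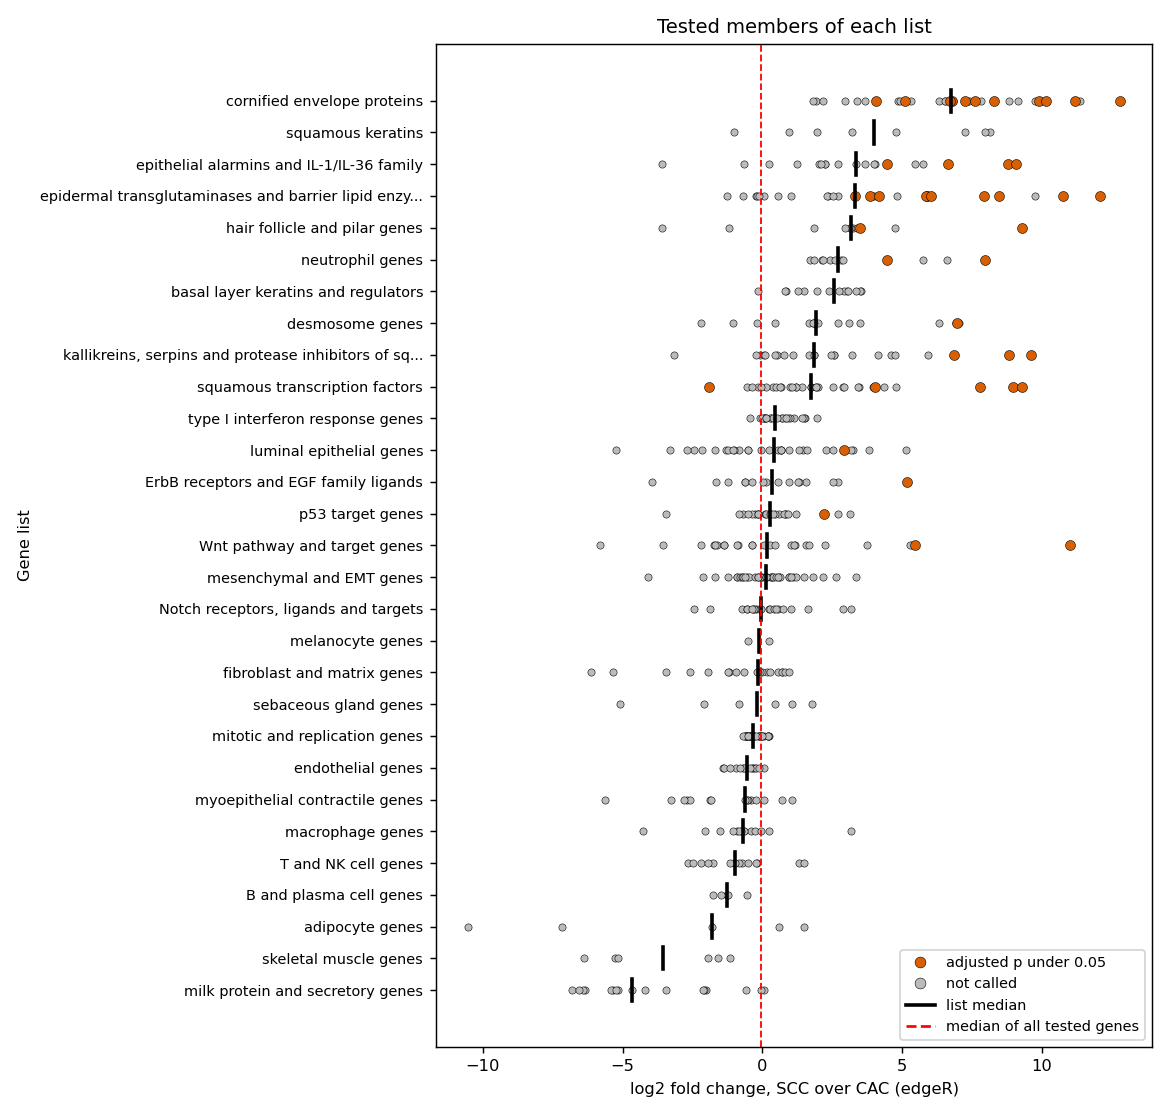
Fitted log2 fold change (SCC over CAC, edgeR, x axis) of each tested member of 29 gene lists (y axis, ordered by median), with called genes in orange, list medians as black ticks and the median of all tested genes (−0.06) as a dashed line. The cornified envelope list has 11 called genes (median 6.75) and the barrier lipid list 10 (median 3.30), while the Notch and mesenchymal medians lie near the dashed line.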

How the data were processed

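Bulk RNA of 7 RhoC tumors was compared, 3 SCC against 4 CAC, n being tumors. RNA was isolated with a Qiagen RNeasy kit, libraries were made with a total RNA stranded kit after ribosomal depletion, and reads were paired. The authors trimmed reads with Trim Galore 0.5.0, aligned them with STAR 2.6.0c to GRCm38.p6 and counted uniquely mapping reads per gene with HTSeq 0.6.1p2, discarding reads on more than one gene, so near-identical paralogs lose reads. The strand setting and annotation release are not given in the sources used here, so reads of overlapping or antisense genes may not be told apart. The authors deposited raw counts per gene and tumor, and deposited FPKM values (fragments scaled by transcript length and depth). FPKM values were used only to order keratins within a tumor. Deposited columns of DESeq2 and edgeR comparisons between cohorts were not used.

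Counts were analysed with R 4.3.3 and edgeR 4.0.16: filterByExpr by histology (19249 genes), TMM scaling, glmQLFit and glmQLFTest, two-sided, with Benjamini-Hochberg adjustment and a threshold of 0.05. The SE is the log2 fold change divided by the square root of F. Levels are CPM on TMM-scaled library sizes. Alternatives were library size scaling, DESeq2 1.42.0, limma voom 3.58.1 with mouse as a random effect, no filter, all 12 RhoC tumors in the fit, mouse as a block, the P497 SCC summed, only the 2 mice with both histologies, and each tumor left out. Where CAC held no read, a floor of 3 reads per library gave a bound; 1 to 3 reads gave a ratio with a 95% Poisson interval. The edgeR, blocked edgeR, DESeq2 and voom fits were tested on simulated data.

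Pairing comes from the labels, which name the mouse. Deviations from the group means correlated at −0.094 for R-6 and R-7, −0.150 for R-13 and R-16 and 0.226 for R-14 and R-16. No batch or date was given, so a batch effect was not tested. Named genes were the 12 in each direction with the smallest p among called genes with mean log2 CPM over 0, the allele genes Rhoc, Erbb2, Gata4 and Grb7, and anchors and leading members of 30 gene lists, of which 29 are reported (squamous programs, mammary and other cell types, signalling). Further called members of a list, such as Elovl4, Scel, Lce3c, Sprr2i, Sprr2k and Tprg, were named after their values were seen. Some items that met these rules are not reported here. Symbols were matched through RefSeq synonyms, and promoters are RefSeq on GRCm38.p6. The tumors, lists and rules were chosen with earlier results of these data known. Read depth was 52293664 to 70318383 per tumor. Bounds and counting intervals cover counting error only.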

Additional observations from a re-analysis of the deposited data

Results flagged for a closer look

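In the 4 CAC, 108 genes were checked for a tumor far from the rest by the ratio of its gap to the whole range in log2 CPM (above Dixon's 95% critical value). Chance marks about 1 group in 20, and 10 were marked. R-12 was the high tumor for Sprr1b (ratio 1), Ivl (0.900), Krt6a (0.882), Krt6b (0.918) and Krt17 (0.847). R-10 was the low tumor for Sult2b1 (0.831), Spink5 (0.843), Ovol1 (0.861) and Csn3 (0.843), and R-7 for Foxa1 (0.912). The other 3 CAC held no read of Sprr1b and 1 read of Ivl in all, so those ratios follow from values at or near 0. Krt6a, Krt6b, Krt17 and Ivl were called in the fit without R-12.

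For 5 of 127 genes checked, from the named genes and list members, the difference between SCC and CAC had opposite signs in the 2 mice, as differences in log2 CPM; whether the mice differ was not tested, since 1 of them has a single pair. In N9255 (R-6 minus R-7) Wap differed by −11.23, Krt8 by −0.87, Krt18 by −1.62, Csf3r by 2.97 and Grb7 by −0.74. In P497 the same genes differed by 2.07, 1.84, 1.37, −0.62 and 2.03 for R-13 minus R-16, and by 2.94, 0.89, 0.71, −0.11 and 2.16 for R-14 minus R-16. None of the 5 was called in the comparison of all 7 tumors.

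Among tumors outside the comparison, the RhoC tumor R-18 had a summed level of 907 CPM for the barrier lipid list, above the highest of the 9 control tumors (857, N-1). On that scale the SCC were at 1617, 1035 and 687 CPM in R-6, R-13 and R-14, so both R-18 and N-1 exceeded R-14. That tumor enters only the fit with all 12 RhoC tumors.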

How the results depend on the processing

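Against 263 calls (181 higher, 82 lower), library size scaling gave 309 (231 and 78) and a fit with all 12 RhoC tumors 326 (229 and 97). DESeq2 gave 2205 (1020 and 1185), voom with mouse as a random effect 739 (494 and 245), no filter 499 (339 and 160), the replicate block for mouse 639 (407 and 232) and only the mice with both histologies 807 (458 and 349). Summing the P497 SCC gave 52 (49 and 3), which leaves 2 SCC libraries. Leaving out 1 tumor gave 5 to 827 calls, 4 to 593 higher and 0 to 234 lower: without R-6 24 (24 and 0), R-7 8 (7 and 1), R-10 59 (32 and 27), R-12 827 (593 and 234), R-13 7 (7 and 0), R-14 330 (218 and 112) and R-16 5 (4 and 1). The cause was not tested. With mouse as a block, 156 of the 263 remained called, and blocked values that change a call stand beside the genes above. Among 127 named genes checked, log2 fold changes reversed, none of a called gene, for Wap without R-7 (1.35), Krt18 under the block (−0.14), Rhoc without R-13 (−0.060) and Vim in only the mice with both histologies (0.15). Reversals among other uncalled genes were not counted. Median log2 fold change over all tested genes lay between −0.11 and −0.01 in every fit. Genes with 0 to 3 CAC reads allow only bounds or wide counting intervals.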

Other observations

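Squamous RNA was not limited to tumors listed as SCC. On a TMM scale over all 21 tumors, the summed cornified envelope list was 880 to 5026 CPM in the 3 SCC (median 1593), 101 to 219 in the 4 CAC (median 136) and 62.1 to 208 in the other 5 RhoC tumors (median 75.9). The highest of those 5 was R-15, which shares mouse P497 with SCC R-13 and R-14. In the 9 control tumors the list summed to 50.3 to 1933 (median 145), with N-1 at 1933 and N-9 at 566, both of the Gata4(loxP/+) genotype. The squamous keratin list summed to 1317 to 10955 CPM in SCC, 5.89 to 440 in CAC, 9.09 to 68.0 in the other RhoC tumors and 14.4 to 975 in controls. These values describe single tumors, and no comparison was made.

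Basal layer genes summed to 13812 to 32218 CPM in SCC and 2029 to 12606 in CAC, against 2115 to 3799 in the other RhoC tumors and 1108 to 5627 in controls. The CAC R-12 was therefore above each of the 14 tumors outside the comparison for this list, while its cornified envelope sum of 161 CPM among the 7 tumors lay within the range of the other CAC (96.5 to 209). By single genes, R-12 was the highest CAC for 17 of the 32 tested envelope genes (53.1%), against 24.9% of all tested genes.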
